A study of Mus musculus with 6 samples.

Results

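The genes described here are 10 that make and load MHC class I molecules in mouse liver: the heavy chains H2-K1 and H2-D1, the light chain B2m, the peptide transporter genes Tap1 and Tap2, the loading factor Tapbp, the transactivator Nlrc5, and the immunoproteasome subunits Psmb8, Psmb9 and Psmb10. They were taken by gene symbol from the deposited expression table, and all 10 were found among 17738 genes with values. The livers came from mice of the outbred ICR stock in 2 groups of 3 libraries, numbered 1 to 3 in each. The water group was gavaged with water at 10 ml/kg for 1 week. The extract group was gavaged for 1 week with 1 g/kg per day of an ethyl acetate fraction, prepared from a water-soluble extract of Chebulae Fructus, a medicinal fruit. No allele, transgene or other agent is named for either group, and age and sex are not given. Separate animals are not stated for the libraries, whose spread is all that the p-values measure and may be technical.

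Class I molecules carry peptides of the cell's own proteins to the surface, where cytotoxic T cells read them. Proteasomes cut the peptides, the TAP transporter moves them into the endoplasmic reticulum, and tapasin, the product of Tapbp, holds the empty heavy chain with B2m while a peptide is fitted. Interferons induce most of this machinery, in part through NLRC5, and they also induce 3 proteasome subunits that replace constitutive ones. Resting hepatocytes are known for low class I levels, while Kupffer and endothelial cells of the liver carry more. A liver library mixes these cells, so more cells of a type and more RNA per cell cannot be told apart in it.

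On GRCm38.p6, 7 of the 10 genes lie in the MHC region of chromosome 17, between 33919478 and 35267497. H2-K1 (gene ID 14972) spans chr17:33996012-34000619, H2-D1 (14964) chr17:35263094-35267497 and Tapbp (21356) chr17:33919478-33929290. A cluster holds Psmb9 (16912) at chr17:34182030-34187330, Tap1 (21354) at chr17:34187556-34197225, Psmb8 (16913) at chr17:34198195-34201454 and Tap2 (21355) at chr17:34204479-34216321. The other 3 are B2m (12010) at chr2:122147687-122153082, Nlrc5 (434341) at chr8:94434335-94527272 and Psmb10 (19171) at chr8:105935728-105938392. Tap1 and Psmb9 are read in opposite directions from start sites 225 bases apart, so their promoter windows share 275 bases.

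RefSeq promoter windows, from 250 bases before to 50 bases after an annotated start, were found for 8 of the 10 genes. Those of H2-K1 (chr17:34000298-34000597, minus strand, the first of 2 listed starts), H2-D1 (chr17:35262844-35263143, plus strand) and B2m (chr2:122147437-122147736, plus strand) are shown because either heavy chain pairs with B2m. The window of Tap1 (chr17:34187306-34187605, plus strand) covers the stretch shared with Psmb9, and that of Psmb8 (chr17:34197945-34198244, plus strand) belongs to the immunoproteasome gene with the largest fold change. They are the reference sequence of the C57BL/6J strain and not of the ICR mice, in which class I genes may differ. Capitals mark every match to 5 motifs described after the sequences.
H2-K1: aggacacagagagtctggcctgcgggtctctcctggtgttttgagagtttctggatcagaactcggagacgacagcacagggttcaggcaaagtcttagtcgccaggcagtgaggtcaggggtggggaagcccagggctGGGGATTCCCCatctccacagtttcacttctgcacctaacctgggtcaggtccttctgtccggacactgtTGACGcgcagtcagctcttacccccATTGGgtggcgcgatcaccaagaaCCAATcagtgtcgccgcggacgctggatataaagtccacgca
H2-D1: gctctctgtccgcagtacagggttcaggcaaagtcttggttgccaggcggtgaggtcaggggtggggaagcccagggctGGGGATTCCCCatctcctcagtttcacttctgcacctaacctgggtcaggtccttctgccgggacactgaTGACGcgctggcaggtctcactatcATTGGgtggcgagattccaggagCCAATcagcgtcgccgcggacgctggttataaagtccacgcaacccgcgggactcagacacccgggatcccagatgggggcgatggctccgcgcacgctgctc
B2m: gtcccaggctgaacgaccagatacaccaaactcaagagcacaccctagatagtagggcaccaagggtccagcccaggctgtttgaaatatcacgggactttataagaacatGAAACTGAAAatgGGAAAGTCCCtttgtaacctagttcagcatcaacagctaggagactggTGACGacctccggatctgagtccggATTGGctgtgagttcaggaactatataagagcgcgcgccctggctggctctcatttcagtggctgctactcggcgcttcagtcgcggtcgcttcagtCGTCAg
Tap1: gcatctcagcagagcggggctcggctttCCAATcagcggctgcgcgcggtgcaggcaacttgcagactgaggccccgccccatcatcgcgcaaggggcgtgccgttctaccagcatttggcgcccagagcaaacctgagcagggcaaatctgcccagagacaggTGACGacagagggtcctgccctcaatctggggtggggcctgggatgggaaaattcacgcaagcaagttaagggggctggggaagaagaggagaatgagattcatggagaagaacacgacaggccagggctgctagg
Psmb8: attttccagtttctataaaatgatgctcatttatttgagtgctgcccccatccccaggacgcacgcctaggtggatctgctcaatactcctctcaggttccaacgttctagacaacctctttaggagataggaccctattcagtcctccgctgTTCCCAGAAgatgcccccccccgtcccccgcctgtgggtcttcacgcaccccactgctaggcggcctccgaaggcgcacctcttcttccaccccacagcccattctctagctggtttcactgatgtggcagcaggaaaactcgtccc

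The motifs were searched on both strands as exact strings, so a window without a match may still hold a variant of the element. The interferon-stimulated response element (TTTC, any 2 bases, TTTC) matched 1 of the 8 windows, that of B2m, against 3.43% of all 32817 promoter windows. The windows of H2-K1 and H2-D1 hold a similar stretch, tttcacttct, which this string does not match and which was not counted. The interferon gamma activated site (TTCNNNGAA) also matched 1, Psmb8, against 8.29%. The NF-kB consensus matched 3, H2-K1, H2-D1 and B2m, against 8.46%, and H2-K1 and H2-D1 hold 2 overlapping matches in the same 11 bases. The core of the cyclic AMP response element (TGACG) matched 5 windows, against 20.8%, and the Y box (CCAAT) matched 6, against 37.4%. Tap1 and Psmb9 share their matches to these last 2 motifs, since their windows overlap.

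In H2-K1, H2-D1 and B2m, TGACG is followed by 20 bases and then by ATTGG, the Y box read on the other strand. This spaced pair was looked for after the single matches had been seen. It occurs in 31 of the 32817 windows (0.0945%), which belong to these 3 genes and 24 others, the class I-like gene H2-M3 among them. Such cores and Y boxes belong to the module through which NLRC5 is known to act on class I promoters. The windows of H2-K1 and H2-D1 are themselves 88.3% identical over 239 aligned bases, so their matches are not independent. No motif matched in the Psmb10 window, and Tap2 and Nlrc5 had no window.

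**Figure D1:**
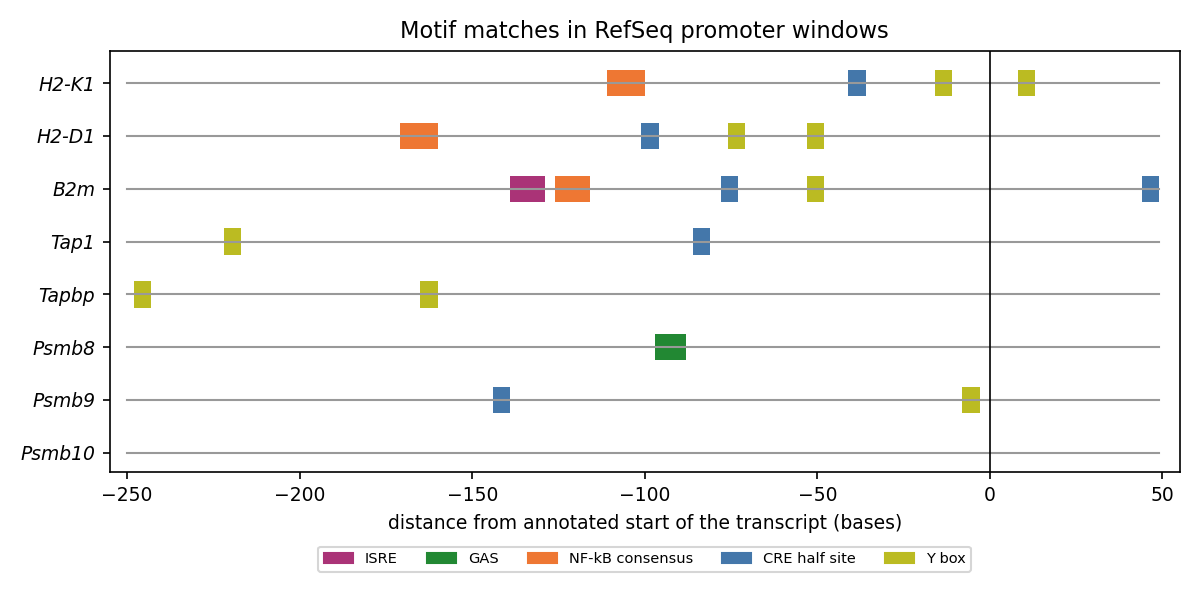
Positions of motif matches in the promoter windows of 8 genes, in bases from the annotated start of the transcript (vertical line); each bar is a match on either strand, drawn to scale. H2-K1, H2-D1 and B2m each hold an NF-kB match followed by a cyclic AMP response core and a Y box, while Psmb10 holds no match.

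Expression is given as FPKM, the fragments of a gene per kilobase and per library total, a unit inferred from the values. Read totals were not given, so the counting error of a single value is unknown. Library sums ranged from 517984 to 583245 FPKM. Differences were tested with limma on log2(FPKM + 1) over the 10282 genes that reached 1 FPKM in 3 or more libraries, with Benjamini-Hochberg adjustment over all of them. All 10 genes exceeded 1 FPKM in every library, so none was tested only through the group where it was higher. Of all genes tested, 0.0486% were called at an adjusted p below 0.05 in either direction. Hepatocyte markers were abundant in every library, as the tissue label states. Over the 9 measured, their sum was 88120 to 93125 FPKM in water and 72849 to 84091 FPKM in extract livers. When limma weighted libraries by how well they matched their group, water 1 had the lowest weight, 0.302, and extract 1 the highest, 2.55.

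None of the 10 genes was called by limma at an adjusted p below 0.05. For Nlrc5 and Tap1 every extract library exceeded every water library, and these 2 also had an unadjusted limma p below 0.05. That is 2 of 10, where 6.50% of all genes tested had such a p with a higher level in extract, and groups did not overlap in that direction for 10.0% of all genes. The heavy chains and B2m, which form the class I molecule itself, had overlapping groups and small differences. All 10 log2 fold changes were positive, as were 57.5% of those of all genes, with a median of 0.20 against 0.03 over all genes tested.

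H2-K1 encodes a classical class I heavy chain, the part of the molecule that binds the peptide. Its levels were 468, 408 and 347 FPKM in water 1 to 3, and 446, 439 and 415 FPKM in extract 1 to 3. All extract values lay within the range of water, and water held both the highest and the lowest library. The group means were 408 ± 60.1 and 433 ± 16.5 FPKM (SD, n = 3 here and throughout). Its log2 fold change was 0.10, with a standard error of 0.14 and a 95% interval of -0.24 to 0.43 (limma adjusted p = 0.902). Without water 3 it was -0.01.

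H2-D1, the other classical heavy chain of this reference, was at 582, 537 and 537 FPKM in water and 614, 563 and 619 FPKM in extract livers. Extract 1 and extract 3 exceeded all water libraries, while extract 2 lay below water 1. The log2 fold change was 0.12 ± 0.12 (SE), with a 95% interval of -0.17 to 0.40 (limma adjusted p = 0.837). H2-D1 was the only gene of the 10 for which extract 3 was the highest library. The heavy chain levels are uncertain, because class I genes resemble each other. The longest coding transcripts of H2-K1 and H2-D1 are 91.1% identical over 1578 aligned bases. Of the 50-base stretches of the H2-D1 transcript 14.3% occur unchanged in another gene's coding transcript, and of those of H2-K1 8.79%, against at most 0.878% for the other 8 genes.

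B2m encodes beta-2 microglobulin, the invariant light chain that every class I heavy chain needs to reach the surface. Its levels were 2981, 2180 and 2430 FPKM in water and 2412, 3199 and 2251 FPKM in extract livers. Each group held 1 library far above its others, water 1 and extract 2; extract 2 exceeded every water library and the other extract libraries lay within the water range. For B2m the log2 fold change was 0.05 ± 0.20 (SE), with a 95% interval of -0.42 to 0.51 (limma adjusted p = 0.971). It became -0.18 after quantile normalization, -0.06 without water 2 and -0.11 without extract 2, so no direction can be given for B2m.

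B2m had the highest level of the 10 genes, followed by H2-D1 and H2-K1. FPKM is a level per transcript length, so levels of different genes are on the same scale. Length scaling does not remove the uncertainty of the heavy chain levels given above, which the ratios below share. The ratio of B2m to the sum of the 2 heavy chains was 2.84, 2.31 and 2.75 in water and 2.27, 3.19 and 2.18 in extract livers. The ratio of H2-D1 to H2-K1 was 1.24, 1.32 and 1.55 in water and 1.38, 1.28 and 1.49 in extract livers. Neither ratio separated the groups: in two-sided exact permutation tests of 5 summed or divided quantities, their p-values were 0.8 and 0.9 (0.9 for both after Benjamini-Hochberg adjustment). The smallest p that 3 against 3 libraries allow is 0.1.

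**Figure D2:**
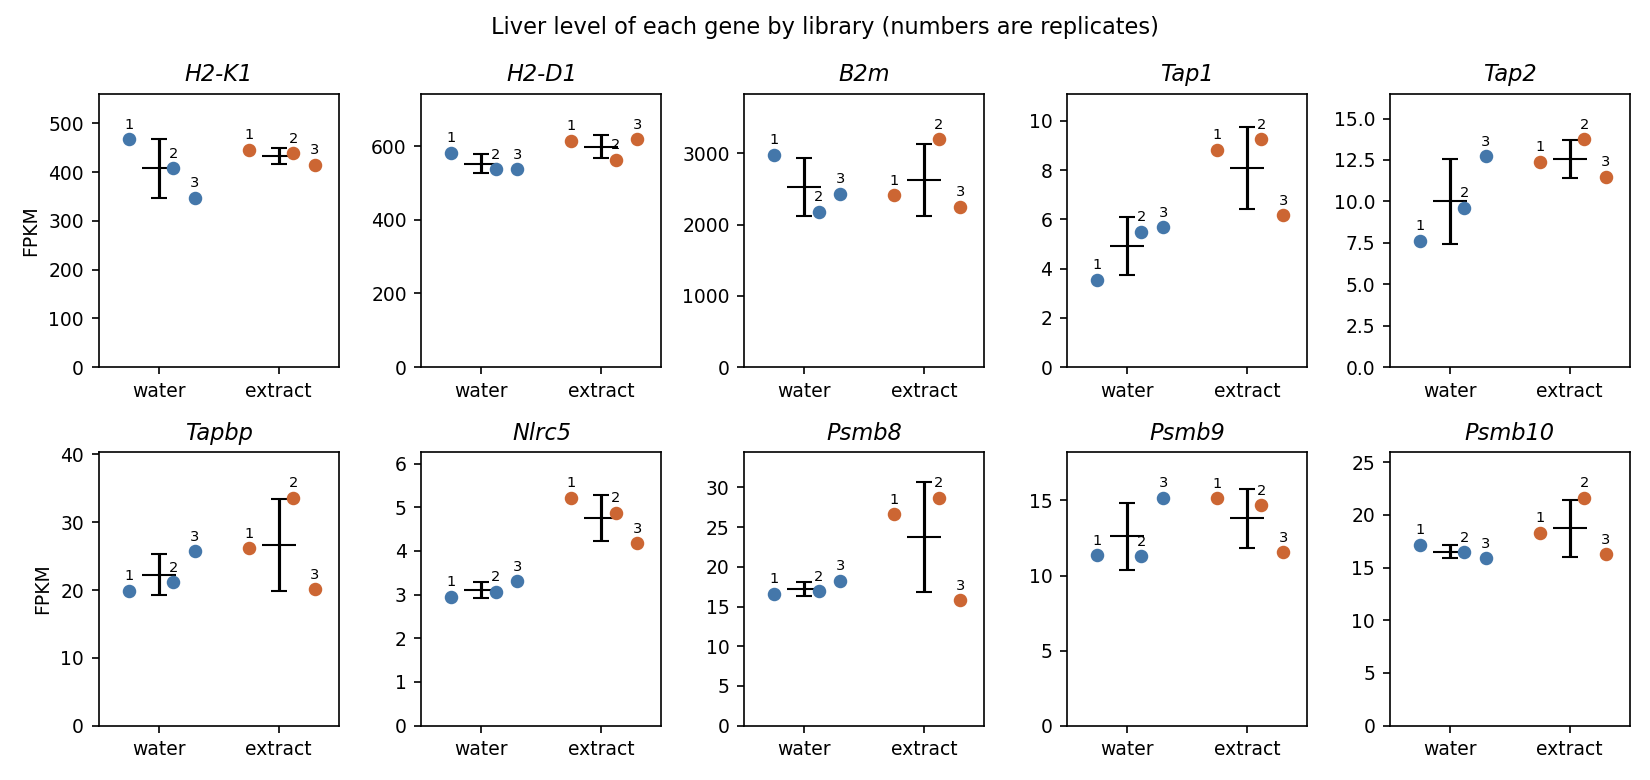
FPKM of the 10 genes in each of the 6 libraries, with the mean and SD of each group in black and the replicate number above each point; each panel has its own linear axis from 0. Nlrc5 and Tap1 separate the groups, while H2-K1, H2-D1 and B2m overlap, and extract 3 is the lowest extract library for 9 of the 10 genes.

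Tap1 encodes a subunit of the transporter that pumps cytosolic peptides into the endoplasmic reticulum. It was at 3.55, 5.5 and 5.69 FPKM in water and 8.83, 9.26 and 6.17 FPKM in extract livers. The groups did not overlap, but extract 3 was only just above water 3. The means were 4.91 ± 1.18 and 8.09 ± 1.67 FPKM, a ratio of 1.65. The log2 fold change of 0.62 ± 0.20 (SE), with a 95% interval of 0.16 to 1.09, was the largest of the 10 genes, and the limma p was 0.0147 before and 0.324 after adjustment. Left-out libraries moved it between 0.44, without water 1, and 0.79, without extract 3. Without extract 2 its unadjusted p was no longer below 0.05, and Nlrc5 alone of the 10 had one, against 4.50% of all genes in that direction.

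Tap2, the partner subunit, was at 7.64, 9.63 and 12.7 FPKM in water and 12.4, 13.8 and 11.5 FPKM in extract livers. Water 3 lay inside the extract range, so the groups overlapped. Its log2 fold change was 0.32 ± 0.18 (SE), with a 95% interval of -0.09 to 0.73 (limma adjusted p = 0.593). It was 0.16 without water 1 and 0.50 without water 3, where Tap2 too had an unadjusted p below 0.05, as did 6.37% of all genes with a higher level in extract. The ratio of Tap1 to Tap2 was 0.465, 0.571 and 0.447 in water and 0.712, 0.673 and 0.537 in extract livers, with extract 3 below water 2 (exact permutation p = 0.2, 0.75 adjusted over the 5 quantities).

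Tapbp was at 19.9, 21.1 and 25.8 FPKM in water and 26.2, 33.6 and 20.1 FPKM in extract livers. Extract 1 and extract 2 exceeded every water library, whereas extract 3 lay within the water range. The log2 fold change was 0.23 ± 0.19 (SE), with a 95% interval of -0.22 to 0.67 (limma adjusted p = 0.79). It was 0.41 without extract 3 and 0.05 without extract 2.

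Nlrc5 encodes a NOD-like receptor family protein that enters the nucleus and raises transcription of class I genes. Its levels were 2.95, 3.07 and 3.31 FPKM in water and 5.22, 4.87 and 4.18 FPKM in extract livers. All extract values exceeded all water values, and the water values lay close together. The means were 3.11 ± 0.18 and 4.76 ± 0.53 FPKM, a ratio of 1.53. On the log2(FPKM + 1) scale of limma the log2 fold change was 0.48 ± 0.12 (SE), with a 95% interval of 0.21 to 0.75. The added 1 lowers fold changes at such low levels: with 0.1 added instead, that of Nlrc5 was 0.59 and that of Tap1 0.72. Nlrc5 had the smallest limma p of the 10 genes, 0.00337 before and 0.211 after adjustment. Its unadjusted p stayed below 0.05 in each of the 6 fits that left out a library, where the log2 fold change ran from 0.42 to 0.56.

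Psmb8 encodes LMP7, the immunoproteasome subunit that takes the place of the catalytic subunit Psmb5. It was at 16.6, 16.9 and 18.2 FPKM in water and 26.6, 28.7 and 15.8 FPKM in extract livers. Extract 1 and extract 2 lay well above water, while extract 3 was the lowest of all 6 libraries. The log2 fold change was 0.39 ± 0.21 (SE), with a 95% interval of -0.10 to 0.88 (limma adjusted p = 0.587). Without extract 3 it was 0.65, with a limma p of 0.00141 before and 0.109 after adjustment. Without extract 2 it was 0.24.

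Psmb9 encodes LMP2, which replaces Psmb6, and lies beside Tap1. It was at 11.4, 11.3 and 15.2 FPKM in water and 15.2, 14.7 and 11.6 FPKM in extract livers. Its highest library was water 3, and the groups overlapped over almost their whole range. Extract over water gave a log2 fold change of 0.13 ± 0.16 (SE), with a 95% interval of -0.24 to 0.49 (limma adjusted p = 0.873). It was 0.06 without water 1, water 2 or extract 1, 0.08 without extract 2, 0.24 without extract 3 and 0.26 without water 3. Psmb9 and Tap1 share their promoter region, and the order of their libraries differed: water 3 was the highest for Psmb9 and the fourth highest for Tap1.

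Psmb10 encodes MECL-1, which replaces Psmb7. It was at 17.2, 16.5 and 15.9 FPKM in water and 18.3, 21.7 and 16.3 FPKM in extract livers. Extract 3 again lay within the water range and the other extract libraries above it. The log2 fold change was 0.17 ± 0.13 (SE), with a 95% interval of -0.13 to 0.46 (limma adjusted p = 0.756). It was 0.06 without extract 2 and 0.26 without extract 3.

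The constitutive counterparts were more abundant than the immunoproteasome subunits in every library. Psmb5 averaged 37.2 ± 6.03 FPKM in water and 42.9 ± 1.53 in extract, Psmb6 75.9 ± 16.2 and 75.2 ± 6.81, and Psmb7 81.0 ± 5.75 and 87.2 ± 1.36. Psmb8, Psmb9 and Psmb10 together made up 16.7%, 19.4% and 22.3% of the summed FPKM of the 6 catalytic subunits in water, and 22.5%, 23.7% and 18.0% in extract livers. Extract 1 and extract 2 lay above all water libraries and extract 3 within them (exact permutation p = 0.5, 0.833 adjusted over the 5 quantities).

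Each immunoproteasome subunit was also divided by the subunit it replaces. Psmb8 per Psmb5 was 0.38, 0.469 and 0.574 in water and 0.645, 0.651 and 0.364 in extract livers. Extract 3 had the lowest ratio and the other extract libraries the highest. The ratio on the log2(FPKM + 1) scale differed by 0.18 ± 0.31 (SE) between the groups, by 0.12 ± 0.28 for Psmb9 per Psmb6 and by 0.06 ± 0.12 for Psmb10 per Psmb7. Two-sided exact permutation tests gave p = 0.6, 0.7 and 0.7, or 0.7 for each when adjusted over the 3 ratios. Psmb9 per Psmb6 ranged from 0.121 to 0.24 in water and from 0.172 to 0.189 in extract livers, and Psmb10 per Psmb7 from 0.196 to 0.209 and from 0.184 to 0.248.

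**Figure D3:**
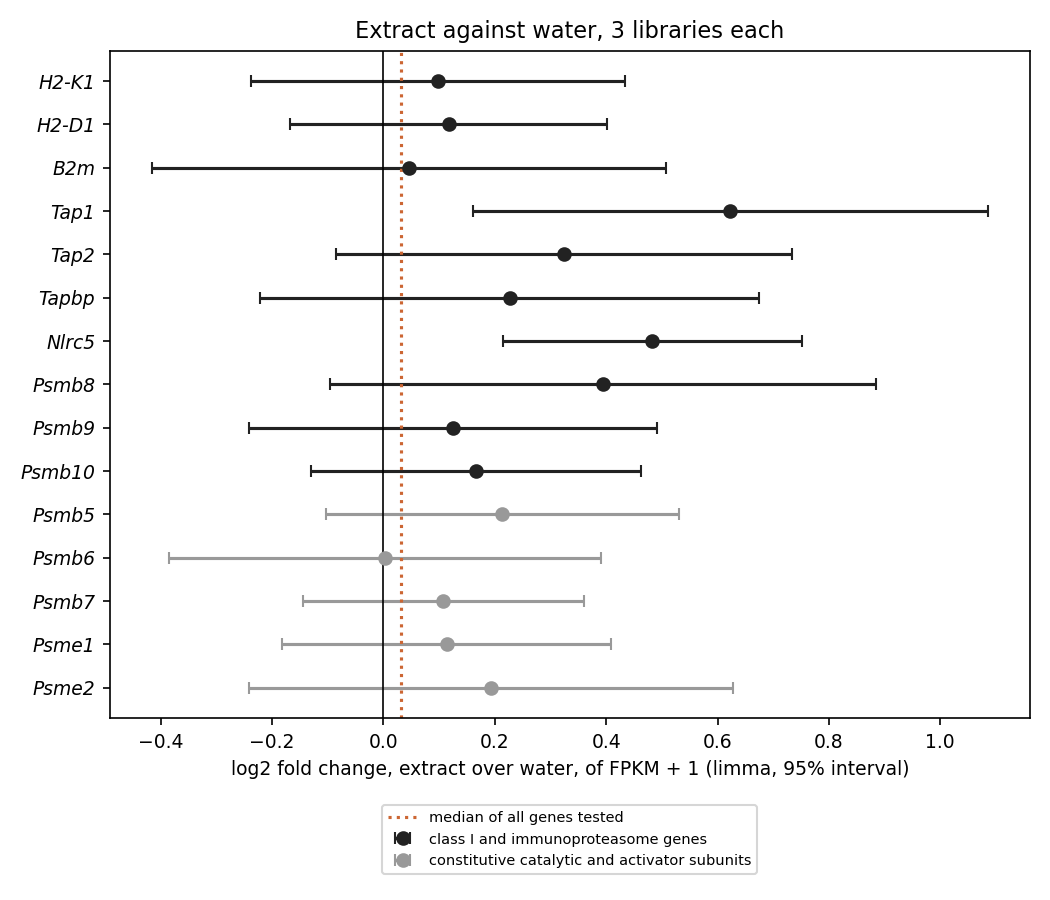
Log2 fold change of FPKM + 1, extract over water, from limma with 3 libraries per group, for the 10 genes (black) and for the constitutive catalytic and activator subunits (grey); bars are 95% intervals and the dotted line is the median of all genes tested. Only the intervals of Tap1 and Nlrc5 lie above 0.

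Extract 1 exceeded all water libraries for 6 of the 10 genes, extract 2 for 7 and extract 3 for 3, namely H2-D1, Tap1 and Nlrc5. Over all genes tested these shares were 23.8%, 27.7% and 32.1%. Extract 1 and extract 2 both lay above all water libraries for 5 genes, Tap1, Tapbp, Nlrc5, Psmb8 and Psmb10, against 15.4% of all genes. Extract 3 had the lowest extract value for 9 genes, against 29.9% of all genes, and extract 2 was the highest of all 6 libraries for 6, against 17.3%. Averaged over the 10 genes, log2(FPKM + 1) was 5.32, 5.34 and 5.45 in water and 5.68, 5.78 and 5.42 in extract livers, so extract 3 lay inside the water range. Without extract 3, 3 genes had an unadjusted limma p below 0.05, Psmb8 besides Nlrc5 and Tap1, where 6.26% of all genes tested had such a p with a higher level in extract. The median log2 fold change of all 10 genes was then 0.32, and 0 of the 10 were called after adjustment. With library weights the same 3 genes had such a p, against 11.5% of all genes.

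By mean level over the 6 libraries the order was B2m (2576 FPKM), H2-D1 (575), H2-K1 (420), Tapbp (24.5), Psmb8 (20.5), Psmb10 (17.6), Psmb9 (13.2), Tap2 (11.3), Tap1 (6.5) and Nlrc5 (3.93). The first 3 stood clear of each other and of the rest. Tapbp and Psmb8 overlapped, with Tapbp higher in 5 of 6 libraries, and so did Psmb8 and Psmb10, with Psmb8 higher in 4. Psmb10 was above Psmb9, Psmb9 above Tap2, Tap2 above Tap1 and Tap1 above Nlrc5 in all 6 libraries.

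Among partners in trimming and loading peptides, 4 of 13 tested genes had an unadjusted limma p below 0.05, all with higher levels in extract livers, against 6.50% of all genes in that direction, and 0 were called after adjustment. The lectin chaperone gene Calr was at 195, 122 and 161 FPKM in water and 268, 299.5 and 239.9 FPKM in extract livers. Every extract library exceeded every water library, extract 3 included (log2 fold change 0.77, limma adjusted p = 0.212). Pdia3, a disulfide isomerase of the loading complex, averaged 78.5 ± 11.2 FPKM in water and 115 ± 9.76 in extract. Uggt1, which returns unfolded glycoproteins to calreticulin, had 6.58 ± 0.40 and 8.75 ± 0.40 FPKM, and Tapbpl, which encodes the peptide editor TAPBPR, 8.24 ± 1.23 and 10.6 ± 0.36. Calr, Pdia3 and Uggt1 also serve the folding of other glycoproteins. The list had a median log2 fold change of 0.24, and its trimming enzyme Erap1 averaged 17.1 FPKM in water and 20.1 in extract (limma unadjusted p = 0.201).

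Class I-like and non-classical genes had no common direction. Of 15 tested, 6 had a log2 fold change above 0, against 57.5% of all genes. The median was -0.03, and 0 had an unadjusted limma p below 0.05 in either direction. Those with the smallest p were H2-Q4 (40.8 ± 2.11 FPKM in water and 47.1 ± 0.92 in extract livers), Mr1 (3.50 ± 1.13 and 2.50 ± 0.60), H2-M3 (0.99 ± 0.08 and 1.38 ± 0.43) and H2-T10 (14.6 ± 4.69 and 18.5 ± 2.65). H2-Q10, a secreted class I-like molecule of liver, was named after its values were seen: it averaged 567 ± 42.4 FPKM in water, above H2-K1, and 508 ± 27.8 in extract livers. H2-M3 and H2-T10 were highest in extract 2.

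Of the other 20S core subunits, 10 of 11 had a log2 fold change above 0, against 57.5% of all genes. Their median was 0.12, and 0 had an unadjusted limma p below 0.05. Psma5 came closest (28.5 ± 4.50 and 35.0 ± 2.01 FPKM, unadjusted p = 0.0588). The interferon-inducible activator subunits Psme1 and Psme2, which cap the proteasome, had 86.6 ± 3.29 and 94.2 ± 11.6 FPKM, and 59.7 ± 11.1 and 68.6 ± 13.0 FPKM. For Psme1 and Psme2 extract 3 was the lowest extract library, at 81.3 and 53.6 FPKM, while extract 1 and extract 2 exceeded all water libraries. None of the 9 activator and assembly genes had an unadjusted limma p below 0.05.

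Of 23 tested genes for class I transcription and interferon signalling, 20 had a log2 fold change above 0, against 57.5% of all genes. The median was 0.12. An unadjusted limma p below 0.05 was found for 2, both with higher levels in extract livers, against 6.50% of all genes in that direction. After adjustment 0 of the 23 were called. The interferon regulatory factor Irf7 was at 14.9, 12.6 and 14.3 FPKM in water and 49.5, 116 and 26.3 FPKM in extract livers (limma adjusted p = 0.212). Extract 3 was the lowest extract library for Irf7. Irf1, known to act on the shared TAP1 and PSMB9 promoter in human cells, had its highest level in extract 3, at 15.5 FPKM against 11.05 and 11.65 in extract 1 and 2 and 8.77 to 11.04 in water. Ifngr1, of the interferon gamma receptor, was likewise highest in extract 3. The RFX subunit genes Rfx5, Rfxank and Rfxap, which act with NLRC5, had log2 fold changes of -0.06, -0.16 and 0.35, with unadjusted limma p from 0.121 to 0.801. Ciita, the class II relative of Nlrc5, stayed below the filter.

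Class II presentation genes had 6 tested members, all with a log2 fold change above 0, against 57.5% of all genes. Their median was 0.15, and 0 had an unadjusted limma p below 0.05. Their summed level was 34.1 to 57.2 FPKM in water and 45.0 to 53.7 FPKM in extract livers. Over the stretch of chromosome 17 from Tapbp to H2-D1, 1.35 megabases long, 55 other genes were tested. Of these, 2 (3.64%) had an unadjusted limma p below 0.05 with a higher level in extract and 4 (7.27%) with a lower one. Over all genes tested the shares were 6.50% and 3.82%. The median log2 fold change of the 55 was 0.08.

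All 13 Kupffer cell markers had positive fold changes, against 57.5% of all genes, with a median of 0.61. Of the 13, 9 had an unadjusted limma p below 0.05, against 6.50% of all genes with a higher level in extract. None of the 13 was called after adjustment. Their summed level was 151 to 175 FPKM in water and 232 to 350 FPKM in extract livers, and none was at 0 in any library. C1qa, a complement gene of macrophages, averaged 26.4 ± 2.23 FPKM in water and 50.2 ± 7.89 in extract. In extract 3 the sum was 254 FPKM, above all water libraries, while the mean of the 10 class I and immunoproteasome genes was inside the water range there. The part of Kupffer cells in the levels of the 10 genes was not tested.

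Lymphocyte markers were low. Of 15 T and NK cell markers 1, the chemokine gene Ccl5, passed the filter, and their sum was 6.42 to 7.71 FPKM in water and 7.4 to 9.53 in extract livers. Of the 15, 9 stayed under 1 FPKM in all libraries, and those below the filter reached at most 1.23 FPKM. The T cell genes Cd3d and Cd8a stayed at or below 0.40 and 0.32 FPKM, and Prf1 was at 0 in at least 1 library. Cd3g reached 1.19 FPKM in extract 3 and Gzma 1.23 in extract 1. None of the 5 measured B cell markers passed the filter. The leukocyte gene Ptprc was at 1.05, 0.66 and 1.06 FPKM in water and 1.2, 1.62 and 1.21 in extract livers. Of 6 dendritic cell markers only Bst2 passed, which interferon also induces in other cells and which made up nearly all of that list's sum. Bst2 was at 119, 93.6 and 96.3 FPKM in water and 141, 240 and 115 FPKM in extract livers. Its limma p was 0.047 before and 0.476 after adjustment, where 6.50% of all genes had an unadjusted p below 0.05 with a higher level in extract. Neutrophil and monocyte markers summed to 9.02 to 12.5 FPKM in water and 9.69 to 12.7 in extract livers.

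Sinusoidal endothelial markers, from a cell type that also presents antigen, had negative fold changes in 10 of 10 genes, with a median of -0.22. Over all genes tested 57.5% of fold changes were positive. Fcgr2b, 1 of these markers, had an unadjusted limma p below 0.05, against 3.82% of all genes with a lower level in extract. None of these markers was called after adjustment. Their sum was 155 to 190 FPKM in water and 136 to 161 FPKM in extract livers. Hepatocyte markers had a median of 0.21 with 5 of 9 above 0, against 57.5% of all genes. Their sum, given above, was nevertheless lower in extract livers. Serpina1a, 1 of the 9, had an unadjusted limma p below 0.05, against 6.50% of all genes with a higher level in extract. None of the 9 was called after adjustment. Serpina1a was at 190 ± 64.4 FPKM in water and 328 ± 94.2 in extract, while Alb was at 65842 ± 4774 and 50716 ± 6719 FPKM. The part of these cells in the results was not tested either.

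**Figure D4:**
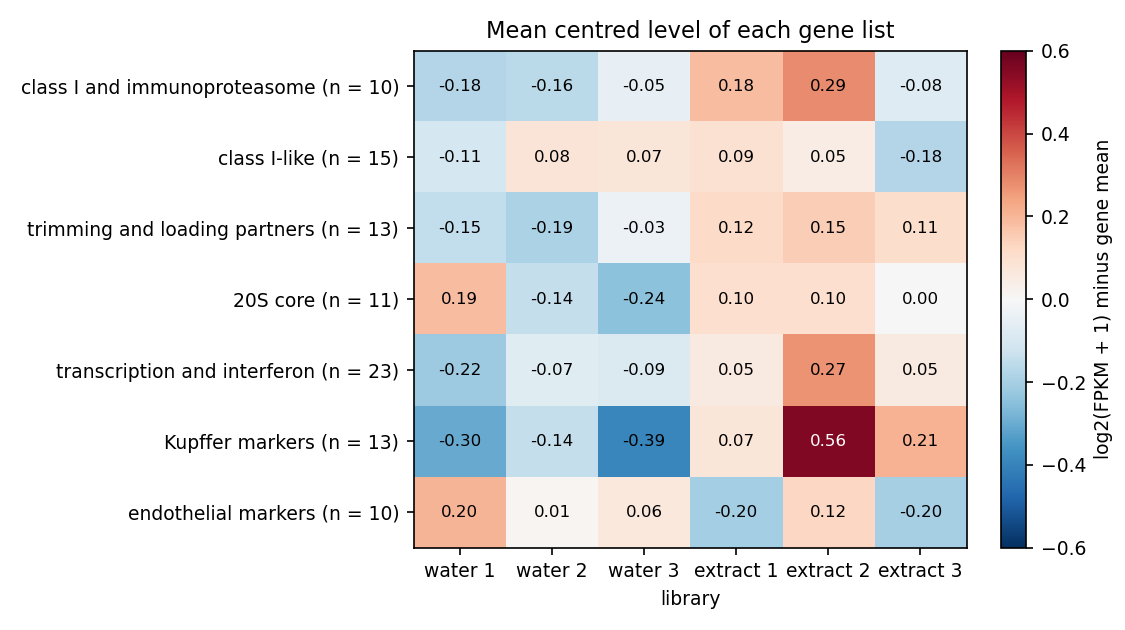
Mean of log2(FPKM + 1) minus each gene's own mean, by library (columns) and gene list (rows, with the number of genes tested). In extract 3 the class I and immunoproteasome genes were at -0.08 and the class I-like genes at -0.18, while Kupffer markers were at 0.21.

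The tested genes whose centred profile over the 6 libraries lay nearest to the mean profile of the 10 were Ahsg, Ogfr, Usp10, Cox18 and Maged1. Their root mean square distance was 0.05 on the log2 scale for each. The 10 genes themselves lay farther from their mean profile, from 0.09 for Psmb10 to 0.25 for Tap1. Ahsg, which encodes the plasma protein fetuin-A made by hepatocytes, was at 6220, 5911 and 6545 FPKM in water and 7961, 7864 and 6622 in extract livers. Ogfr, the opioid growth factor receptor gene, was at 11.4, 11.8 and 12.3 FPKM in water and 16.2, 17.1 and 12.4 in extract livers. In both, extract 3 lay just above the highest water library and the other extract libraries well above it. With 6 libraries, many genes can lie this near to a given profile.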

How the data were processed

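Oligo(dT)-purified liver RNA was sequenced in 3 water and 3 extract libraries, grouped and numbered as labelled. Per the submitters' processing notes, without roles, the build was GRCm38 and the tools were DESeq2 1.4.5, RSEM 1.2.12, HISAT2 2.0.4 and Bowtie2 2.2.5. The deposited table gives 1 value per gene and library to 2 decimals. It was read as FPKM made by the authors, because values times transcript length summed to nearly the same total in each library, whereas plain sums differed. The lowest values did not give read steps, so depth is unknown. Of 22899 rows, 5161 were blank. 11 symbols turned into dates were restored by gene ID, and the authors' group means were not used.

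Limma 3.58.1 (R 4.3.3, trended prior) compared log2(FPKM + 1) between groups. Exact permutation tests were run in SciPy 1.17.1 for the 5 summed or divided quantities and in R for the 3 subunit ratios. The limma step was tested on simulated data with independent normal noise. The changes simulated were larger than those of the 10 genes, so recovery of changes of their size was not tested. Named were all 10 genes, their constitutive and activator partners, up to 4 genes per list with the smallest p, and the 5 nearest profiles; some of these are given only as list counts, and 1 gene is not reported here. The members and lists were chosen with earlier results of these data known, so lists have counts and medians and no test. Positions and promoters are from RefSeq GRCm38.p6, transcripts from GENCODE M21. Alternatives covered scaling, pseudocount, filters, variance options, library weights, a replicate block and leaving out each library.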

Additional observations from a re-analysis of the deposited data

How the results depend on the processing

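None of the 10 genes was called under any of the 18 alternatives to limma's main settings (adjusted p from 0.0594 to 0.999). The number at an unadjusted p below 0.05, 2 as reported, was 1 when only genes averaging 5 FPKM or more were kept, which removes Nlrc5, and 1 to 3 with each library left out. With library weights it was 3, the additional gene being Psmb8. Genes called over the whole table numbered 5 as reported, 0 after median centring (1061 at an unadjusted p below 0.05), median-of-ratios scaling (1044), with no filter on low values (1566) or with the replicate block (922), 2 after quantile normalization or with a pseudocount of 0.1, and 133 with library weights (79 higher, 54 lower). They ranged from 0 to 49 with each library left out, the 49 without extract 3. Genes at an unadjusted limma p below 0.05 split into 668 higher and 393 lower as reported, and into 493 and 568 after median centring.

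The fold change of B2m reversed to -0.18 after quantile normalization and ran from -0.11 to 0.17 with each library left out; that of H2-K1 ran from -0.012 (without water 3) to 0.20, B2m being -0.06 without water 2. With each library left out, the median of the 10 genes lay between 0.12 and 0.32. The log2 ratio of Psmb8 to Psmb5 then ran from 0.04 to 0.45, that of Psmb9 to Psmb6 from -0.11 (without water 1) to 0.37, and that of Psmb10 to Psmb7 from -0.043 (without extract 2) to 0.16. The cause of these changes was not tested. With the replicate block 2 of the 10 genes had an unadjusted p below 0.05, as without it, where 5.60% of all genes did with a higher level in extract. Same-numbered libraries deviated from their group means with correlations of -0.02, -0.18 and 0.12, so the numbers were not taken as pairs. Each group had 3 libraries of unknown depth, and the intervals given are the precision of each fold change.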
